A study of Danio rerio with 20 samples.

Results

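The matrix metalloproteinase (mmp) and tissue inhibitor of metalloproteinase (timp) genes were followed through zebrafish caudal fin regeneration. Members were all genes named mmp or timp plus a digit in the study's supplementary tables of genes changed in sorted cells and of chromatin regions with changed accessibility. These were 13 of the 32105 genes in the count tables, namely mmp9, mmp11b, mmp13a, mmp13b, mmp14b, mmp15a, mmp20a, mmp20b, MMP23B, mmp23bb, mmp24, mmp30 and timp4a. MMP23B is written in capitals in the table and was included by reading the letter case loosely. All 13 passed the filter on low counts in both experiments, where 20157 genes of unsorted tissue and 18641 genes of sorted cells were tested.

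RNA-seq was performed on 20 libraries, 2 in each of 10 groups, with days post-amputation (dpa) counted from a cut at mid length of adult caudal fins. Unsorted tissue came from fosl1a wildtype and fosl1a knockout fish, whole fin at 0 dpa and tissue labelled blastema at 1 and 4 dpa. The mutants were homozygous for a CRISPR-Cas9 allele, given by the study as tw1/tw1, and the wildtypes were their littermates. Sorted cells came from Tg(sp7:EGFP) fish, in which sp7 regulatory sequence drives EGFP in osteoblast lineage cells, and were EGFP-positive (sp7+) or EGFP-negative (sp7-) at 0 and 4 dpa. The sp7+ and sp7- cells of a replicate were sorted from the same pooled fins. The number of fish behind an unsorted library is not given in the sources used here, so p-values measure the spread between these libraries. The tissue taken changed with time, and in sorted cells the enzymes used for dissociation did too, so time and these steps cannot be told apart.

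Matrix metalloproteinases are zinc endopeptidases that cut collagens and other proteins of the extracellular matrix. Secreted members include the collagenases (MMP13), which open fibrillar collagen, and the gelatinases (MMP2 and MMP9), which cut denatured collagen and basement membrane. Membrane-type members (MMP14, MMP15, MMP24) stay at the cell surface, where MMP14 also activates the MMP2 proenzyme. TIMPs bind the active site and block it. In regenerating fins, matrix is remodelled beneath the wound epidermis and around the new bone, and several mammalian MMP genes are known targets of AP-1, the transcription factor family to which fosl1a (Fra1) belongs.

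The sorted libraries held 28906309 to 50312755 counts each, and the unsorted ones 10194983 to 31507208. The lowest total was that of mutant replicate 1 at 0 dpa, which also agreed least with its replicate (Pearson r of log2 levels over genes 0.950, against 0.974 to 0.992 in the other 9 groups). Its osteoblast marker genes summed to 780 CPM (read counts scaled to one normalised library size) against 3110 in replicate 2. In the gate check, sp7 stood at 30.0 to 113 CPM in the sp7+ libraries and at 0.145 to 1.38 CPM in the sp7- libraries. The 2 sp7+ libraries at 0 dpa were uneven in the osteoblast marker sum, at 2065 CPM in one and 6369 CPM in the other. The fosl1a transcript reached 119 and 140 CPM in wildtype at 1 dpa and 34.2 and 46.1 CPM in mutants, while at 0 dpa it was higher in mutants (11.1 and 9.20 CPM) than in wildtype (2.71 and 3.96 CPM). Epidermal markers summed to 93167 to 111052 CPM in sp7+ cells and 136724 to 143188 in sp7- cells at 0 dpa, so the sp7+ libraries also held epidermal transcripts. In tissue, fewer cells of a type and less RNA per cell cannot be told apart. Levels are compared only within a gene, since gene lengths were not used.

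In wildtype tissue the collagenase and membrane-type genes mmp13a, mmp13b and mmp14b rose by 1 dpa, while mmp20a, mmp20b, mmp23bb, mmp30 and the inhibitor gene timp4a fell. A call was made when the change was beyond 2-fold at an adjusted p below 0.05, and by this rule 3 members were higher, 5 were lower and 5 were not called at 1 against 0 dpa. Over all genes tested, 15.3% were called in this comparison. At 4 against 0 dpa, 8 members were higher, timp4a alone was lower and 4 were not called, beside 11.5% of all genes. At 4 against 1 dpa, 8 were higher and none lower, beside 8.97% of all genes. The median log2 change of the members was -0.68, 2.27 and 2.36 in the 3 comparisons. Most members had been chosen as changed between 0 and 4 dpa in sorted fin cells. Nothing is therefore read from how many passed at 4 dpa, or from the medians there.

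The collagenase gene mmp13a had 2.47 and 1.53 CPM in wildtype fins at 0 dpa, 28.4 and 44.7 at 1 dpa, and 38.5 and 52.1 at 4 dpa. The time points after amputation overlapped each other and lay far above 0 dpa. Its log2 change was 4.16 ± 0.33 (SE, n = 2 libraries a group, adjusted p = 2.0e-05) at 1 dpa and 4.48 ± 0.34 (adjusted p = 3.5e-05) at 4 dpa. Its paralogue mmp13b rose in steps, from 3.33 and 1.83 CPM at 0 dpa to 9.05 and 9.38 at 1 dpa and 47.9 and 56.5 at 4 dpa, with no overlap between time points. The log2 change of mmp13b was 1.81 ± 0.27 at 1 dpa (adjusted p = 0.0112) and 4.31 ± 0.28 at 4 dpa (adjusted p = 1.9e-05). The 1 dpa call was lost without wildtype 0 dpa replicate 2 (adjusted p = 0.0880) or wildtype 1 dpa replicate 2 (adjusted p = 0.0561).

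The gelatinase gene mmp9 did not pass in wildtype tissue. Its levels were 46.9 and 42.0 CPM at 0 dpa, 49.7 and 49.3 at 1 dpa, and 102 and 98.8 at 4 dpa. The 4 dpa libraries were above all earlier ones, but the log2 change of 1.18 ± 0.20 was not beyond 2-fold by the test (adjusted p = 0.317). Against no change instead of a 2-fold change, it passed (adjusted p = 0.00089).

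**Figure D1:**
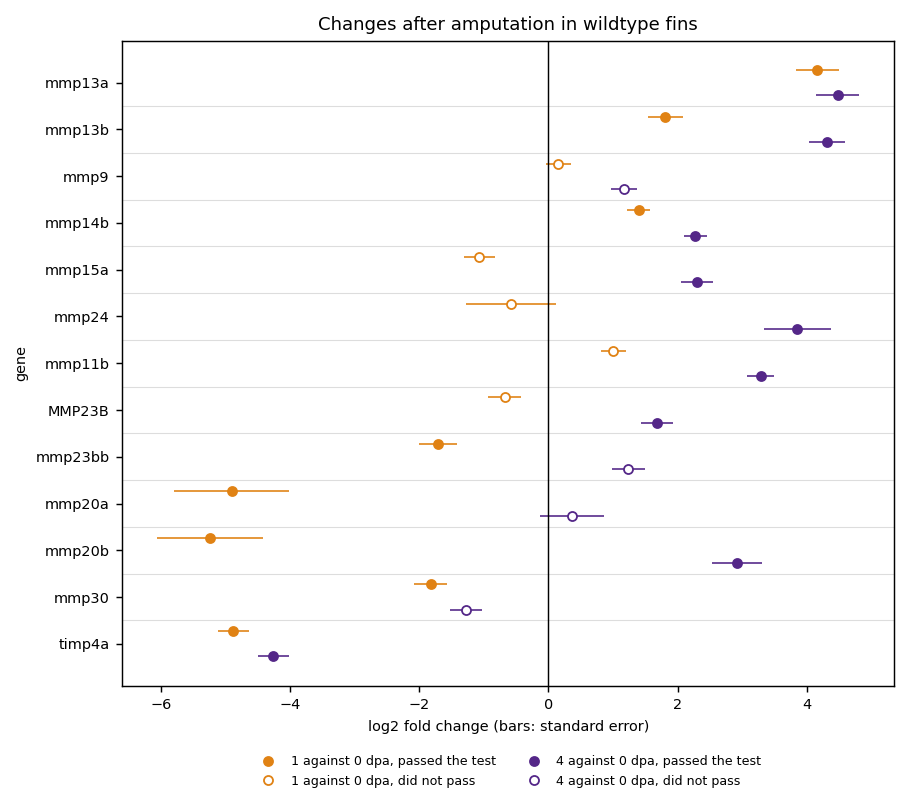
Log2 fold change of each of the 13 members in wildtype tissue at 1 against 0 dpa (orange) and 4 against 0 dpa (purple), with standard errors from the edgeR fit and 2 libraries a group. Filled points passed the test against a 2-fold change; timp4a lies below -4 at both times, while mmp20b is at -5.23 at 1 dpa and 2.93 at 4 dpa.

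Among the membrane-type genes, mmp14b had 95.1 and 97.8 CPM at 0 dpa, 245 and 263 at 1 dpa, and 436 and 497 at 4 dpa in wildtype. The 3 time points did not overlap. The log2 change was 1.40 ± 0.17 at 1 dpa (adjusted p = 0.0352) and 2.27 ± 0.18 at 4 dpa (adjusted p = 0.00013). The 1 dpa call of mmp14b was lost when any 1 of the 4 libraries was left out (adjusted p = 0.0680 to 0.159) and in DESeq2 (adjusted p = 0.0950).

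The levels of mmp15a were 19.7 and 21.8 CPM at 0 dpa, 10.6 and 9.18 at 1 dpa, and 92.2 and 111 at 4 dpa. Its 1 dpa libraries were the lowest and its 4 dpa libraries the highest. Against 2-fold only the later change passed, with a log2 change of 2.30 ± 0.25 (adjusted p = 0.00094). The fall of -1.07 at 1 dpa passed against no change (adjusted p = 0.0044). The level of mmp24 was under 1 CPM before 4 dpa (0.684 and 0.128 at 0 dpa, 0.261 and 0.329 at 1 dpa) and reached 7.23 and 5.66 CPM at 4 dpa. The log2 change of mmp24 was 3.86 ± 0.52 at 4 against 0 dpa (adjusted p = 0.0014). These membrane-type genes therefore shared their highest wildtype level at 4 dpa and differed at 1 dpa, where only mmp14b was called.

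The stromelysin-3 gene mmp11b, whose mammalian counterpart is activated by furin-type proteases inside the cell and is made by stroma in remodelling tissue, was at 9.49 and 10.6 CPM at 0 dpa, 20.1 and 20.2 at 1 dpa, and 93.7 and 102 at 4 dpa in wildtype. Each time point was above the one before it. The log2 change was 1.01 ± 0.19 at 1 dpa, which did not pass against 2-fold (adjusted p = 0.689) but passed against no change (adjusted p = 0.0016). At 4 dpa it was 3.29 ± 0.21 (adjusted p = 2.1e-05), and 2.28 ± 0.20 against 1 dpa (adjusted p = 0.00018).

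The MMP23-type genes encode membrane-anchored proteases that lack the hemopexin domain of most family members. MMP23B had 8.27 and 8.99 CPM at 0 dpa, 5.31 and 5.47 at 1 dpa, and 26.7 and 28.8 at 4 dpa, and mmp23bb had 2.94 and 3.15, 0.945 and 0.905, and 5.87 and 8.47 CPM. Both were lowest at 1 dpa and highest at 4 dpa. The fall of mmp23bb at 1 dpa passed with a log2 change of -1.71 ± 0.30 (adjusted p = 0.0319), but was lost when any 1 of the 4 libraries was left out (adjusted p = 0.0559 to 0.0990) or in DESeq2 (adjusted p = 0.412). MMP23B rose by 1.69 ± 0.25 at 4 dpa (adjusted p = 0.0218), a call lost without wildtype 0 dpa replicate 1 (adjusted p = 0.109), wildtype 0 dpa replicate 2 (adjusted p = 0.0536) or wildtype 4 dpa replicate 2 (adjusted p = 0.0731), and in DESeq2 (adjusted p = 0.159).

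The enamelysin-type genes mmp20a and mmp20b, named for the mammalian enzyme of tooth enamel, fell to 0 or 1 count a library at 1 dpa in wildtype. There mmp20b had 34 and 17 counts (1.01 and 0.725 CPM) at 0 dpa, 1 and 0 counts at 1 dpa, and 107 and 206 counts (5.37 and 8.04 CPM) at 4 dpa. Summed over the libraries of a group, mmp20b was 49.1-fold higher at 0 than at 1 dpa (95% exact interval 8.43 to 1978) and 378-fold higher at 4 than at 1 dpa (67.3 to 14976), where the intervals cover counting error only. The fitted log2 change was -5.23 ± 0.82 at 1 dpa (adjusted p = 0.0020) and 2.93 ± 0.39 at 4 against 0 dpa (adjusted p = 0.0019).

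The counts of mmp20a were 17 and 22 at 0 dpa (0.506 and 0.938 CPM), 0 and 1 at 1 dpa, and 14 and 28 at 4 dpa (0.703 and 1.09 CPM). The 0 and 4 dpa libraries overlapped, and both stood above 1 dpa. The ratio of 0 to 1 dpa was 37.6 (95% exact interval 6.36 to 1522). The fitted log2 change of -4.91 ± 0.89 at 1 dpa (adjusted p = 0.0049) was lost without wildtype 1 dpa replicate 1 (adjusted p = 0.0590) and in DESeq2 (adjusted p = 0.0518). Osteoblast marker genes moved the same way as mmp20b in their sums over 10 genes, at 2753 to 3059 CPM at 0 dpa, 151 to 201 at 1 dpa and 17019 to 24135 at 4 dpa. Of the 10, 7 were called lower and 0 higher at 1 dpa, beside 15.3% of all genes. At 4 against 0 dpa, 6 were called higher and 1 lower, beside 11.5%. The part of these cells in the mmp20 and mmp23 changes was not tested.

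The fish gene mmp30, for which no role is given here, had 29.9 and 41.6 CPM at 0 dpa, 11.99 and 8.15 at 1 dpa, and 11.6 and 17.8 at 4 dpa. Both later time points were below 0 dpa and overlapped each other. Its log2 change was -1.82 ± 0.25 at 1 dpa (adjusted p = 0.0079), lost without replicate 2 of wildtype 0 dpa (adjusted p = 0.0772) or of wildtype 1 dpa (adjusted p = 0.0767). At 4 dpa the log2 change of -1.28 ± 0.25 was not called (adjusted p = 0.237), but passed against no change (adjusted p = 0.0019).

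The only inhibitor gene among the members, timp4a, fell and stayed low. It had 10.8 and 12.1 CPM (362 and 283 counts) at 0 dpa, 0.358 and 0.412 CPM (11 and 10 counts) at 1 dpa, and 0.552 and 0.624 CPM (11 and 16 counts) at 4 dpa in wildtype. Every library after amputation was below 1 CPM. The log2 change was -4.88 ± 0.24 at 1 dpa (adjusted p = 1.2e-06) and -4.26 ± 0.24 at 4 dpa (adjusted p = 9.8e-06), and no alternative setting ended either call.

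**Figure D2:**
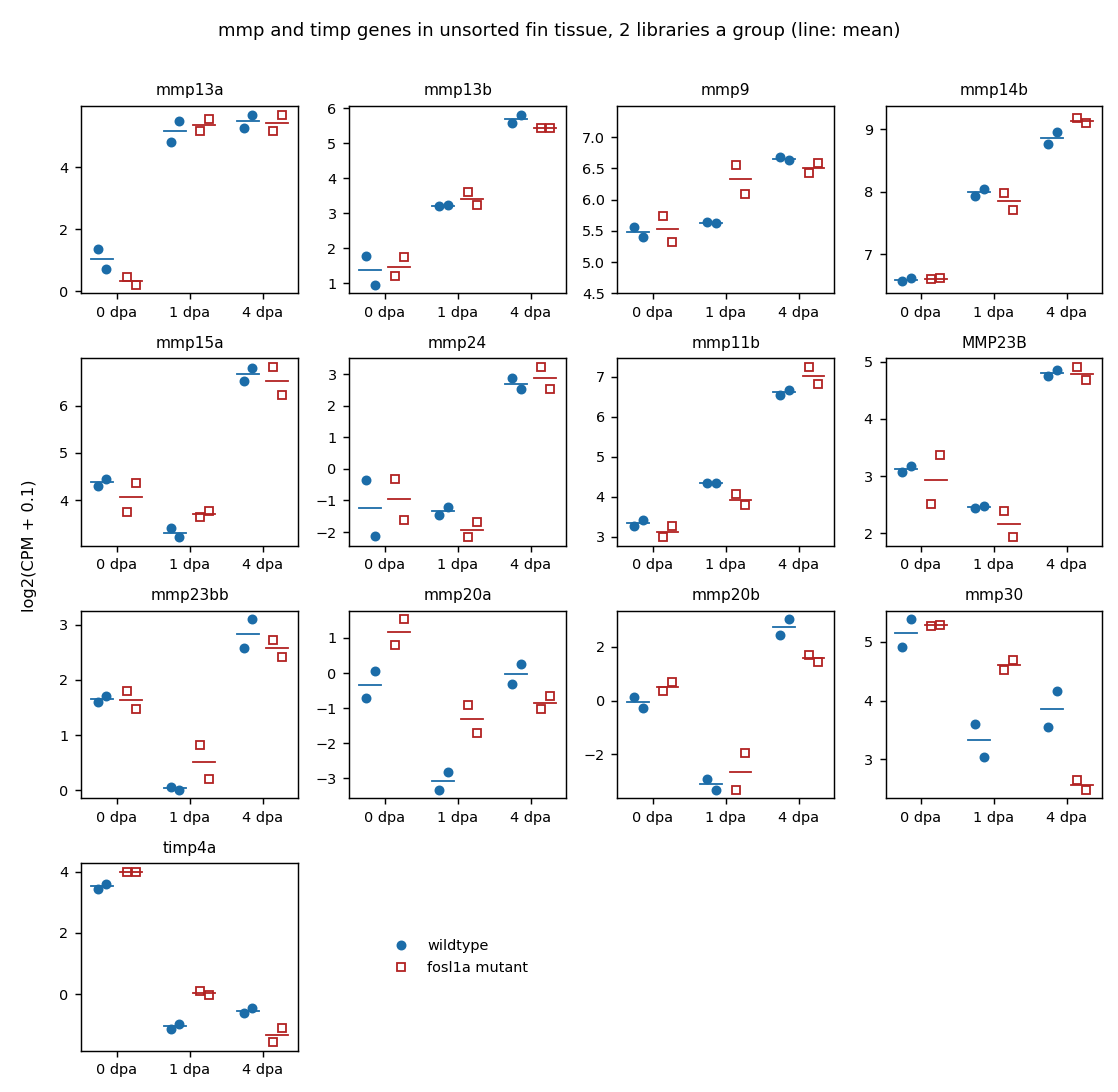
Level of each member in every unsorted library as log2(CPM + 0.1), with wildtype in blue circles and fosl1a mutants in red squares at 0, 1 and 4 dpa, and a line at the mean of the 2 libraries. The dip of mmp20a and mmp20b at 1 dpa, the fall of timp4a after amputation and the separation of the genotypes in mmp30 at 1 and 4 dpa are visible.

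Other family members, taken from the gene name table, numbered 14 in the files, of which 11 were tested. In wildtype 1 was higher and 1 lower at 1 dpa, 3 were higher and 0 lower at 4 dpa, and 4 were higher and 1 lower at 4 against 1 dpa. Over all genes these shares were 15.3%, 11.5% and 8.97%, so 2 of 11 at 1 dpa was near the background. A TIMP2 gene (ENSDARG00000075261), whose mammalian protein inhibits MMPs and also takes part in MMP2 activation by MMP14, was at 20.7 and 19.5 CPM at 0 dpa, 372 and 206 at 1 dpa and 56.8 and 58.4 at 4 dpa. In wildtype it thus stood highest when timp4a was lowest, with a log2 change of 3.84 ± 0.30 at 1 dpa (adjusted p = 1.8e-05) and -2.32 ± 0.28 at 4 against 1 dpa (adjusted p = 0.0015). The mutant libraries of this TIMP2 gene showed the same course, with 19.3 and 19.7, then 519.5 and 392, then 80.2 and 109.8 CPM. In mutants, however, timp4a was lowest at 4 dpa (0.236 and 0.368 CPM, against 0.982 and 0.890 at 1 dpa).

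The second TIMP2 gene (ENSDARG00000061226) was at 196 and 189.6 CPM at 0 dpa, 173 and 204 at 1 dpa and 539.9 and 521 at 4 dpa. It was called at 4 dpa and not at 1 dpa, with a log2 change of 1.46 ± 0.19 against 0 dpa (adjusted p = 0.0343). The gelatinase gene MMP2 (ENSDARG00000017676) had 491 and 490.2 CPM at 0 dpa, 202 and 184 at 1 dpa and 1030.6 and 1308.1 at 4 dpa. MMP2 was lowest at 1 dpa, and its change was called at 4 against 1 dpa (2.60 ± 0.19, adjusted p = 4.5e-05).

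An MMP11 gene (ENSDARG00000026325) rose at 4 dpa by 2.64 ± 0.27 on the log2 scale (adjusted p = 0.00045) and an MMP15 gene (ENSDARG00000013072) by 2.35 ± 0.36 (adjusted p = 0.0067). MMP17 (ENSDARG00000078915) fell at 1 dpa, with a log2 change of -3.11 ± 0.45 (adjusted p = 0.0021), and rose from 1 to 4 dpa (2.58 ± 0.47, adjusted p = 0.0140). Among related proteases, 6 of 30 tested adam and adamts genes were higher and 5 lower at 1 dpa, and 10 were higher and 1 lower at 4 dpa. Of 26 tested genes of pericellular proteolysis, such as plasminogen activators and cathepsins, 4 were higher and 2 lower at 1 dpa, and 7 were higher and 2 lower at 4 dpa. The shares over all genes were again 15.3% at 1 dpa and 11.5% at 4 dpa.

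**Figure D3:**
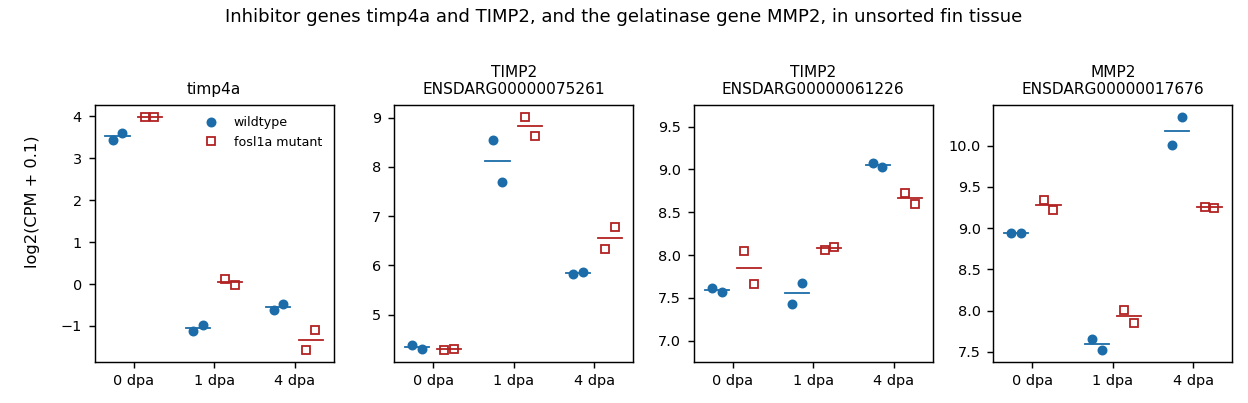
Levels of timp4a, both TIMP2 genes and MMP2 in every unsorted library as log2(CPM + 0.1), wildtype in blue circles and fosl1a mutants in red squares, with a line at the mean of the 2 libraries. The TIMP2 gene ENSDARG00000075261 peaks at 1 dpa (372 and 206 CPM in wildtype) when timp4a is below 1 CPM, and MMP2 is lower in mutants at 4 dpa.

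Mutants were compared with wildtype at each time point. The study reported that regeneration was delayed in fosl1a mutants. After amputation, genotype and stage of regeneration therefore cannot be told apart. At 0 dpa none of the 13 members differed between genotypes by edgeR's test against no difference, beside 0.352% of all genes, and none was called by DESeq2. At an unadjusted p under 0.05 there were 2, mmp20a and timp4a. The 71 genes behind that share were 29 to 1500 with 1 library left out, the most without mutant 0 dpa replicate 2, when 21.9% of the called genes were higher in mutants against 87.3% with all libraries. At 1 dpa 1 member, mmp30, differed, beside 1.23% of all genes. At 4 dpa 2 members, mmp20b and mmp30, were lower in mutants, beside 29.4% of all genes. Most of all genes were uncalled as well, so nothing is read from the number of members called. The 5933 genes behind that share were 126 to 4109 with any 1 of the 4 libraries left out, the lowest without mutant 4 dpa replicate 1. A missed call does not show that the genotypes were alike.

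Neither collagenase gene was called between genotypes after amputation. In mutants mmp13a was at 1.26 and 1.05 CPM at 0 dpa, 36.0 and 46.9 at 1 dpa, and 36.1 and 51.2 at 4 dpa. The genotypes overlapped at 1 and 4 dpa, and the log2 difference was 0.18 ± 0.28 at 1 dpa (adjusted p = 0.821) and -0.05 ± 0.28 at 4 dpa (adjusted p = 0.902). Mutant levels of mmp13b were 2.21 and 3.23, 11.96 and 9.32, and 43.0 and 43.0 CPM, with log2 differences of 0.21 ± 0.25 at 1 dpa and -0.28 ± 0.24 at 4 dpa, neither called. At 4 dpa both mutant libraries of mmp13b were below both wildtype libraries.

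In mutants mmp14b was at 96.7 and 98.5 CPM at 0 dpa, 252 and 210.0 at 1 dpa, and 577 and 550.3 at 4 dpa, and mmp15a at 13.4 and 20.4, 12.5 and 13.6, and 113 and 74.9 CPM. Mutant levels of mmp24 were 0.709 and 0.228, 0.123 and 0.209, and 9.28 and 5.64 CPM. None of these membrane-type genes was called between genotypes at any time. The MMP23B levels were 5.60 and 10.3, 5.15 and 3.72, and 29.9 and 25.5 CPM, and those of mmp23bb were 3.39 and 2.69, 1.66 and 1.05, and 6.52 and 5.27 CPM, again without a call.

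The gelatinase gene mmp9 was at 53.5 and 39.9 CPM at 0 dpa, 93.7 and 68.1 at 1 dpa, and 85.7 and 96.0 at 4 dpa in mutants. At 1 dpa both mutant libraries lay above both wildtype libraries, but the log2 difference of 0.71 ± 0.20 did not pass (adjusted p = 0.127). The mmp11b level was 7.80 and 9.52 CPM, 16.6 and 13.8, and 152 and 112 in mutants, below wildtype in both libraries at 1 dpa (-0.41 ± 0.19, adjusted p = 0.363) and above it in both at 4 dpa (0.43 ± 0.19, adjusted p = 0.107).

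For mmp30 the genotypes separated in opposite directions. Mutant libraries held 38.6 and 39.0 CPM at 0 dpa, inside the wildtype range, 22.8 and 25.6 at 1 dpa, above wildtype, and 6.17 and 5.47 at 4 dpa, below wildtype. The log2 difference was 0.12 ± 0.24 at 0 dpa (adjusted p = 0.919), 1.26 ± 0.25 at 1 dpa (adjusted p = 0.0401) and -1.34 ± 0.26 at 4 dpa (adjusted p = 0.0055). The 1 dpa call was lost when any 1 of the 4 libraries was left out (adjusted p = 0.105 to 0.375). The 4 dpa call was lost without wildtype replicate 2 (adjusted p = 0.0619) or mutant replicate 1 (adjusted p = 0.0556). Epidermal markers (10 of 10 detected) summed to 79771 to 93146 CPM in mutants and 60445 to 66526 in wildtype at 4 dpa, and leukocyte markers (7 of 12 in the files, mostly cd74a) to 990 to 1363 and 635 to 749 CPM. Both sums were higher in mutants at 4 dpa, where mmp30 was lower. Gene by gene, 1 of the 10 epidermal markers was called higher and 2 lower in mutants, with a median log2 difference of 0.06. Of the 7 leukocyte markers, 2 were called higher and 0 lower, beside 29.4% of all genes. Osteoclast markers (4 of 6 in the files, mostly CTSK) moved with mmp30 at 4 dpa, at 370 to 414 CPM in mutants and 510 to 593 in wildtype. Of the 3 tested, 1 was called lower and 0 higher in mutants, beside 29.4% of all genes. At 1 dpa, where mmp30 was higher in mutants, the leukocyte sum was too (583 to 603 against 406 to 425 CPM). Gene by gene, 0 of the 7 leukocyte markers were called there, beside 1.23% of all genes, with log2 differences from -0.77 to 1.24. The osteoclast sums at 1 dpa were 285 to 297 CPM in mutants and 266 to 284 in wildtype. The part of these cells was not tested.

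The enamelysin-type mmp20b had 15 and 33 counts at 0 dpa (1.18 and 1.504 CPM), 0 and 3 at 1 dpa, and 81 and 64 at 4 dpa (3.18 and 2.61 CPM) in mutants. At 4 dpa both mutant libraries were below both wildtype libraries, with a log2 difference of -1.21 ± 0.35 (adjusted p = 0.0247) that was lost when any 1 of the 4 libraries was left out (adjusted p = 0.0510 to 0.231). The osteoblast marker sum was 16855 to 22902 CPM in mutants at 4 dpa and 17019 to 24135 in wildtype, so the groups overlapped in it. Gene by gene, 1 of the 10 osteoblast markers was called higher and 2 lower in mutants, beside 29.4% of all genes. Their log2 differences ran from -1.69 to 1.01. The part of these cells in the mmp20b difference was not tested. For mmp20a the mutant counts were 21 and 61 at 0 dpa (1.66 and 2.78 CPM), 7 and 4 at 1 dpa (0.429 and 0.209 CPM) and 10 and 13 at 4 dpa (0.393 and 0.531 CPM). The mutants were above wildtype at 0 and 1 dpa and below it at 4 dpa, with log2 differences of 1.67 ± 0.47, 3.75 ± 1.07 and -0.97 ± 0.52, none of which passed (adjusted p = 0.289, 0.130 and 0.184).

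The inhibitor gene timp4a was at 15.7 and 15.8 CPM at 0 dpa, 0.982 and 0.890 at 1 dpa, and 0.236 and 0.368 at 4 dpa in mutants. The genotypes did not overlap at any time, with mutants higher at 0 and 1 dpa and lower at 4 dpa. The log2 differences were 0.47 ± 0.18, 1.27 ± 0.30 and -0.96 ± 0.33, and none passed (adjusted p = 0.548, 0.0740 and 0.0837).

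**Figure D4:**
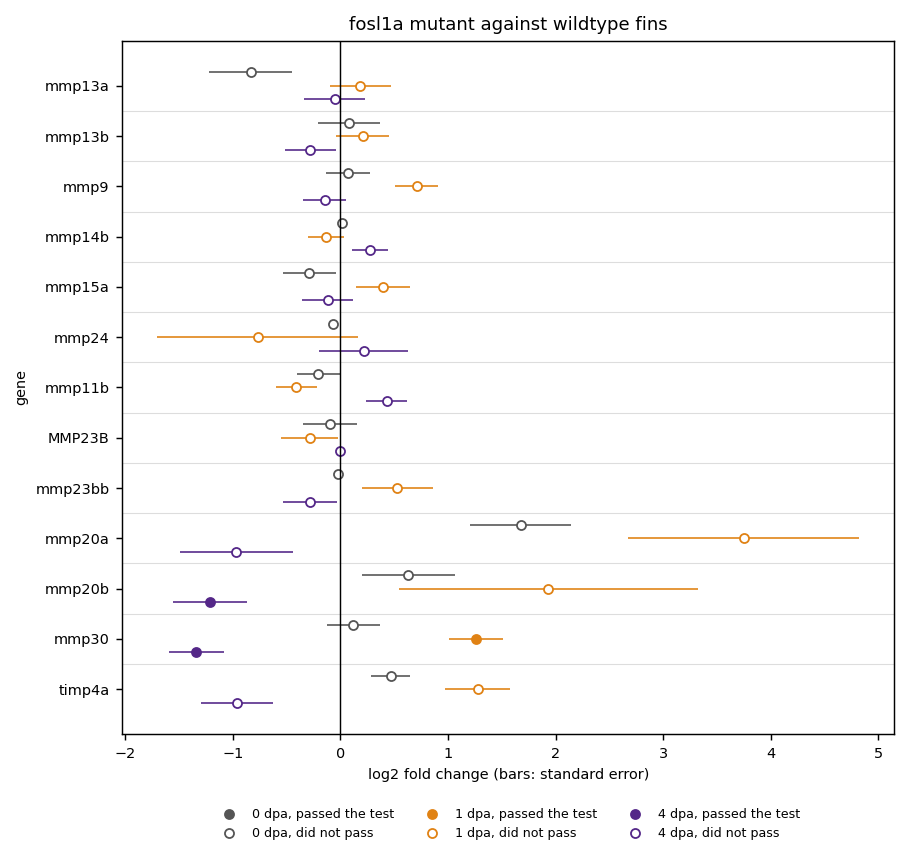
Log2 difference of each member between fosl1a mutant and wildtype tissue at 0 (grey), 1 (orange) and 4 dpa (purple), with standard errors from the edgeR fit and 2 libraries a group, with no bar where the raw p exceeded 0.9. Filled points passed the test against no difference: mmp30 at 1 dpa (1.26) and at 4 dpa (-1.34), and mmp20b at 4 dpa (-1.21).

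Within mutants, 2 members were called higher and 3 lower at 1 against 0 dpa, beside 10% of all genes. Those called higher were mmp13a (5.18 ± 0.37, adjusted p = 2.1e-05) and mmp13b (1.93 ± 0.28, adjusted p = 0.0108). Those called lower were mmp20a, mmp20b and timp4a (-4.07 ± 0.23, adjusted p = 8.85e-06). The mutant libraries of mmp9, mmp11b and mmp14b were also higher at 1 than at 0 dpa, without a call. Against no change instead of 2-fold, mmp14b (1.24, adjusted p = 0.00027) and mmp23bb (-1.16, adjusted p = 0.0128) passed. At 4 against 0 dpa 7 members were called higher and 3 lower, beside 15.0% of all genes, and the choice of members limits this count as in wildtype. The mutant log2 change at 4 dpa was 3.92 ± 0.22 for mmp11b, 5.26 ± 0.37 for mmp13a, 3.95 ± 0.28 for mmp13b, 2.53 ± 0.18 for mmp14b, 2.46 ± 0.25 for mmp15a, 1.78 ± 0.25 for MMP23B and 4.14 ± 0.57 for mmp24. The 3 called lower were mmp20a (-2.28 ± 0.50, adjusted p = 0.0304), mmp30 (-2.74 ± 0.27, adjusted p = 0.00023) and timp4a (-5.69 ± 0.26, adjusted p = 9.6e-07). Without mutant replicate 1 at 0 dpa, the library that stood apart, the calls of mmp13b at 1 dpa (adjusted p = 0.0515) and MMP23B at 4 dpa (adjusted p = 0.0538) were lost. The calls of mmp20a in mutants were lost without mutant 0 dpa replicate 2 at both times (adjusted p = 0.0992 and 0.138), without mutant 1 dpa replicate 2 (adjusted p = 0.159) and without either mutant 4 dpa library (adjusted p = 0.179 and 0.0924). Those of mmp13b at 1 dpa and MMP23B at 4 dpa were also lost without replicate 1 of the later time point (adjusted p = 0.0810 and 0.0682).

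The differences between genotypes in these changes were tested directly. For 1 against 0 dpa no member passed by edgeR or DESeq2, beside 0.506% of all genes, and 3 had an unadjusted p under 0.05 in edgeR (mmp9, mmp30 and timp4a). For 4 against 0 dpa 4 members passed, beside 18.5% of all genes, each with a lower log2 change in mutants. Of these, mmp20a fell in mutants, while its wildtype libraries of these days overlapped. The log2 difference in change was -2.64 ± 0.70 for mmp20a (adjusted p = 0.0288), -1.84 ± 0.55 for mmp20b (adjusted p = 0.0424), -1.46 ± 0.36 for mmp30 (adjusted p = 0.0226) and -1.43 ± 0.38 for timp4a (adjusted p = 0.0283). In a fit of only these 4 groups none passed by edgeR (adjusted p = 0.0563, 0.0555, 0.0539 and 0.0652, in the same order). Leaving out 1 library at a time called between 0 and 3 of the members. The highest adjusted p were 0.131 for mmp20a, 0.164 for mmp20b and 0.0956 for mmp30, all without wildtype 4 dpa replicate 2, and 0.154 for timp4a without mutant 4 dpa replicate 1. Each of the 8 libraries ended at least 1 of these calls.

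The difference in the change from 1 to 4 dpa was tested after the values above were seen. It was -2.60 ± 0.36 for mmp30 (adjusted p = 0.0044), which passed without each of the 8 libraries in turn. It was also called for mmp20a (-4.72 ± 1.19, adjusted p = 0.0221), timp4a (-2.24 ± 0.45, adjusted p = 0.0115) and, in the other direction, mmp11b (0.84 ± 0.27, adjusted p = 0.0467), so that 1 member was higher and 3 lower beside 22.2% of all genes. Each of these last 3 calls was lost without some single libraries, 5 of 8 for mmp20a (adjusted p up to 0.107, without mutant 1 dpa replicate 1), 3 of 8 for timp4a (up to 0.0584, without wildtype 4 dpa replicate 2) and 7 of 8 for mmp11b (up to 0.174, without mutant 4 dpa replicate 1).

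Among the 11 tested other family members, MMP2 was the only gene called between genotypes at 4 dpa, beside 29.4% of all genes. MMP2 was lower in mutants, with 611 and 608 CPM against 1030.6 and 1308.1 in wildtype (log2 difference -0.94 ± 0.18, adjusted p = 0.0056). Its change from 0 to 4 dpa also differed between genotypes (-1.29 ± 0.26, adjusted p = 0.0143), beside 18.5% of all genes. Among the 30 tested adam and adamts genes, ADAMTS8 (ENSDARG00000058252) was the only gene called between genotypes at 1 dpa, beside 1.23% of all genes. It was higher in mutants (log2 difference 2.76, adjusted p = 0.0302). Whether the MMP2 calls and the ADAMTS8 call held in the alternative settings was not examined.

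In sorted cells the question was which population carried the family transcripts. The changes from 0 to 4 dpa within sp7+ or sp7- cells were those from which the study had drawn most members, so they are described here without a test. The choice of members largely fixes how many lie past the threshold there, and nothing is read from the counts of 8 higher and 2 lower in sp7+ cells (27.4% over all genes) and 6 higher and 3 lower in sp7- cells (17.1%). The comparison of sp7+ with sp7- cells at one time used the same libraries but another contrast, and was tested against a 2-fold difference. At 0 dpa 1 member was higher and 5 were lower in sp7+ cells, beside 18.0% of all genes, and at 4 dpa 3 were higher and 1 lower, beside 9.02%. Most members were chosen on changes over time in these same libraries, and that choice can favour differences between the populations at one time. Nothing is therefore read from these counts, and the p-values of single members below may be affected by the same choice.

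The stromelysin-3 gene mmp11b was at 0.754 and 0.917 CPM in sp7+ cells and 3.90 and 5.19 in sp7- cells at 0 dpa, and at 74.5 and 72.9 in sp7+ cells and 47.6 and 49.0 in sp7- cells at 4 dpa. The sp7+ cells went from the lower to the higher of the populations. At 0 dpa the log2 difference was -2.44 ± 0.27 (adjusted p = 0.00033), and at 4 dpa it was 0.61 ± 0.21, which did not pass (adjusted p = 1.0). The fitted log2 change over time was 6.45 in sp7+ and 3.40 in sp7- cells.

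The gelatinase gene mmp9 moved in opposite directions. It had 16.0 and 41.2 CPM in sp7+ cells at 0 dpa and 269 and 188 at 4 dpa, while sp7- cells had 75.0 and 101 at 0 dpa and 56.0 and 44.3 at 4 dpa. The populations did not overlap at either time. At 4 dpa mmp9 was higher in sp7+ cells by 2.18 ± 0.37 on the log2 scale (adjusted p = 0.0128), a call lost without sp7- replicate 2 (adjusted p = 0.111) or sp7+ replicate 1 (adjusted p = 0.0913). At 0 dpa the difference of -1.62 ± 0.37 did not pass (adjusted p = 0.0816), but passed with the shared fin pools of each time point as a block (-1.75, adjusted p = 0.0032) and without sp7+ 0 dpa replicate 2 (adjusted p = 0.0010). Osteoclast markers, of cells known to make MMP9 in mammals, were detected for 4 of 6 genes and summed to 226 to 266 CPM in sp7+ and 297 to 298 in sp7- cells at 4 dpa. Leukocyte markers (7 of 12 in the files) summed to 1904 to 2139 CPM in sp7+ and 971 to 1047 in sp7- cells at 4 dpa, so this sum was higher where mmp9 was. Most of it was cd74a (1847 and 2097 CPM against 753 and 861), while ptprc, CORO1A, LCP1, lyz and il1b were lower in both sp7+ libraries and csf1ra overlapped. At 0 dpa, where mmp9 was lower in sp7+ cells, both sums were higher in them. Leukocyte markers then summed to 12041 to 17261 against 3490 to 3836 CPM, and osteoclast markers to 209 to 238 against 128 to 153 CPM. Of the 7 leukocyte genes, 1 was called higher and 5 lower in sp7+ cells at 0 dpa, beside 18.0% of all genes. The part of these cells in the mmp9 difference was not tested.

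The collagenase gene mmp13a was at 132 and 65.1 CPM in sp7- cells and 10.8 and 6.38 in sp7+ cells at 0 dpa, and at 74.9 and 60.6 in sp7- cells and 43.4 and 40.2 in sp7+ cells at 4 dpa. It was higher in sp7- cells at both times, and the 0 dpa difference passed (log2 difference of sp7+ against sp7- cells -3.52 ± 0.36, adjusted p = 5.5e-05). In sp7- cells the time points overlapped. These 0 dpa levels contrast with 2.47 and 1.53 CPM in unsorted wildtype fins, in a table normalised separately, and fosl1a was likewise at 1286 to 1464 CPM in the sorted 0 dpa libraries. Whether enzymatic dissociation played a part was not tested. The paralogue mmp13b was low, with 0.0629 and 0.121 CPM in sp7- and 0.178 and 0.399 in sp7+ cells at 0 dpa and 2.21 and 1.31 in sp7- and 1.94 and 1.34 in sp7+ cells at 4 dpa, and was not called between populations.

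The membrane-type gene mmp14b did not separate the populations, with 32.3 and 34.0 CPM in sp7- and 24.0 and 50.3 in sp7+ cells at 0 dpa and 283 and 289 in sp7- and 257 and 304 in sp7+ cells at 4 dpa. Levels of mmp15a were 8.87 and 12.4 in sp7- and 3.15 and 9.96 CPM in sp7+ cells at 0 dpa, and 59.1 and 59.8 against 23.4 and 26.6 CPM at 4 dpa. For mmp24 they were 0.315 and 0.386 in sp7- and 0.311 and 0.359 CPM in sp7+ cells at 0 dpa, and 3.56 and 4.27 against 1.22 and 1.39 CPM at 4 dpa. Both mmp15a and mmp24 were lower in every sp7+ library than in every sp7- library at 4 dpa. Their log2 differences of -1.25 ± 0.37 and -1.59 ± 0.29 did not pass against 2-fold (adjusted p = 0.546 and 0.0756). Against no difference, both passed (adjusted p = 0.0299 and 0.0016).

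MMP23B was at 3.11 and 3.94 CPM in sp7- and 2.75 and 8.37 in sp7+ cells at 0 dpa, and at 20.5 and 19.4 against 11.0 and 9.98 at 4 dpa. The levels of mmp23bb were 2.45 and 2.85 CPM in sp7- and 1.42 and 2.63 in sp7+ cells at 0 dpa, and 6.52 and 7.41 against 9.85 and 9.03 at 4 dpa. At 4 dpa these paralogues were ordered oppositely between the populations, but neither difference was called (log2 difference -0.93 ± 0.36 and 0.44 ± 0.27).

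**Figure D5:**
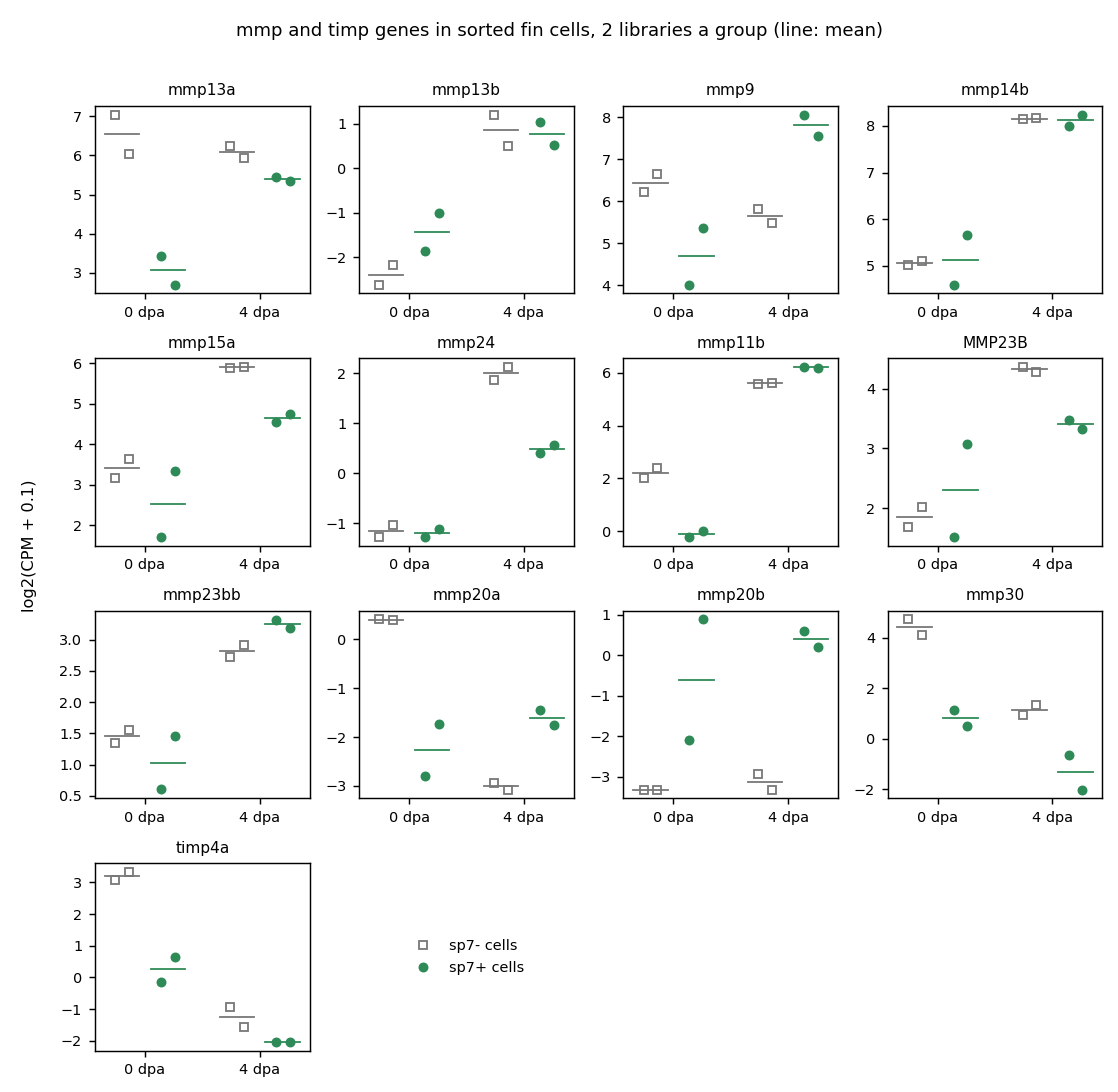
Level of each member in every sorted library as log2(CPM + 0.1), with sp7+ cells in green circles and sp7- cells in grey squares at 0 and 4 dpa, and a line at the mean of the 2 libraries. In mmp11b the sp7+ cells start below sp7- cells and end above them, and in mmp9 the populations move in opposite directions.

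The enamelysin-type mmp20b was found almost wholly in sp7+ cells. It had 3 and 44 counts (0.133 and 1.75 CPM) in sp7+ cells and 0 and 0 counts in sp7- cells at 0 dpa, and 90 and 43 counts (1.42 and 1.05 CPM) in sp7+ cells and 2 and 0 counts in sp7- cells at 4 dpa. Summed over the group and set against a floor of 3 counts, mmp20b was 24.1-fold higher in sp7+ than in sp7- cells at 0 dpa. That value has no interval and takes no account of the uneven sp7+ replicates. The ratio at 4 dpa was 75.9 (95% exact interval 20.6 to 633). Both differences passed (adjusted p = 0.0094 and 0.0073). The 0 dpa call was lost without sp7+ replicate 2 (adjusted p = 0.0991), which held most of the counts, and the 4 dpa call without sp7- replicate 2 (adjusted p = 0.0608) and in DESeq2 (adjusted p = 0.115).

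Its paralogue mmp20a was on the other side at 0 dpa, with 39 and 50 counts (1.23 and 1.21 CPM) in sp7- cells and 1 and 5 counts (0.0444 and 0.199 CPM) in sp7+ cells. At 4 dpa it had 2 and 1 counts in sp7- cells and 17 and 8 counts (0.268 and 0.195 CPM) in sp7+ cells. The log2 difference was -3.25 ± 0.62 at 0 dpa (adjusted p = 0.0068), lost in DESeq2 (adjusted p = 0.118). At 4 dpa the ratio of sp7+ to sp7- cells was 9.51 (95% exact interval 2.90 to 49.2), and the call (adjusted p = 0.0476) was lost with the fin pools as a block (adjusted p = 0.0554) and when any 1 of the 4 libraries was left out (adjusted p = 0.0695 to 0.267). The 4 dpa call was also lost in DESeq2 (adjusted p = 0.501) and in edgeR with the replicate number as a block (adjusted p = 0.0655). In the counts, the higher population of mmp20a thus changed from sp7- to sp7+ between these days, although the difference between days was not tested.

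The levels of mmp30 were 26.4 and 17.1 CPM in sp7- and 2.13 and 1.32 in sp7+ cells at 0 dpa, and 1.82 and 2.39 against 0.537 and 0.146 at 4 dpa. It was lower in sp7+ cells at both times, by a log2 difference of -3.66 ± 0.42 at 0 dpa (adjusted p = 0.00013) and -2.51 ± 0.45 at 4 dpa (adjusted p = 0.0122). The 4 dpa call was lost without replicate 2 of either population (adjusted p = 0.0689 without sp7- and 0.111 without sp7+).

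The inhibitor gene timp4a was at 8.24 and 9.95 CPM in sp7- and 0.799 and 1.47 in sp7+ cells at 0 dpa, and at 0.419 and 0.237 against 0.142 and 0.146 at 4 dpa. It was lower in sp7+ cells at 0 dpa (log2 difference -2.99 ± 0.35, adjusted p = 0.00030) and not called at 4 dpa (-1.19 ± 0.49, adjusted p = 0.748). The fitted log2 change over time was -2.97 in sp7+ and -4.76 in sp7- cells, so timp4a was low at 4 dpa in each population as in unsorted tissue.

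Over the 12 unsorted libraries, the genes whose log2 CPM ran closest to mmp11b were SEPTIN2 (Pearson r = 0.996), loxl2b (0.995), tp53inp2 (0.991), hmcn2 (0.990) and ckbb (0.989). Among the members the closest pairs were mmp13b with mmp14b (0.976), mmp15a with MMP23B (0.973) and mmp11b with mmp13b (0.949), while mmp13a and timp4a ran opposite (-0.966). These values describe 12 libraries that share 3 time points, and no test was made of them.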

How the data were processed

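RNA-seq libraries were unstranded. The authors mapped read pairs with STAR 2.5.2a to GRCz10 (Ensembl release 85), kept uniquely mapped reads and made the deposited read counts per gene on exons with featureCounts 1.5.0, counting a pair for every gene it overlapped, so paralogues and overlapping or antisense genes are uncertain. From these counts, edgeR 4.0.16 in R 4.3.3 (TMM normalisation, filterByExpr, quasi-likelihood) was fitted to each experiment as a whole (20157 of 32105 genes for 12 unsorted and 18641 for 8 sorted libraries). Changes over time and between populations were tested against 2-fold (glmTreat), genotypes and differences in change against 0, and p-values were adjusted by the Benjamini-Hochberg method over the genes of the table, with a threshold of 0.05. Standard errors are the log2 fold change over the root of F. CPM used TMM-scaled totals. DESeq2 1.42.0 was an alternative. Other alternatives were the size factors, the filter, the fit, the test, a replicate block, lower case symbols and each library left out. Scripts were tested on simulated data.

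Every member was named. Other family genes were named where called over time in unsorted tissue, and genes of the other lists where called between genotypes at 1 dpa. The members and lists were chosen with earlier results of these data known. Gene names came from the study's tables and, for other genes, from a name table (26664 of 32105 IDs). The sp7+ and sp7- libraries of a number share pooled fins (correlation of their deviations 0.262 at 0 dpa and 0.130 at 4 dpa). Whether wildtype and mutant libraries of a number share more than that number is not stated. The correlation of their deviations was 0.222 at 0 dpa, 0.139 at 1 dpa and 0.020 at 4 dpa. Exact intervals and the floor of 3 counts cover counting error only. Figures used Python 3.11.15 and matplotlib 3.10.9.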

Additional observations from a re-analysis of the deposited data

Results flagged for a closer look

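By the test of that difference, the change from 0 to 4 dpa differed between fosl1a mutants and wildtype for 4 members, beside 18.5% of all genes. The log2 difference was -2.64 for mmp20a, -1.84 for mmp20b, -1.46 for mmp30 and -1.43 for timp4a. None of these 4 passed in an edgeR fit of only these groups, and each lost its call without some single libraries. In the difference tested after seeing the data, from 1 to 4 dpa, 22.2% of all genes were called. The values of the called members were 0.84 for mmp11b, -4.72 for mmp20a, -2.60 for mmp30 and -2.24 for timp4a. Of these, only the mmp30 call held without each single library. In sorted cells every sp7+ library held more mmp9 at 4 than at 0 dpa and every sp7- library less, and the fitted changes differed by 3.81 on the log2 scale. This difference was not tested, because it uses the contrast from which members were drawn. Groups of 2 libraries are too small for a test of a single library against the rest of its group.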

How the results depend on the processing

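Of 2240 member values under alternatives, 2094 kept their side of the threshold, 123 lost and 23 gained a call. The sign changed in 69, none of them called in either fit. With DESeq2 the members called were 4 instead of 8 for wildtype 1 against 0 dpa, 3 instead of 5 for mutants, 2 instead of 4 for the genotype difference in the change to 4 dpa and 2 instead of 4 for sp7+ against sp7- cells at 4 dpa. Fitting only the groups compared gave 2 members for mutants at 1 against 0 dpa and 0 for the genotype difference in the change to 4 dpa. The cause was not tested. Leaving out 1 library gave 4 to 6 members for wildtype 1 against 0 dpa, 0 for mutant against wildtype at 1 dpa, 0 to 1 at 4 dpa, 0 to 3 and 1 to 4 for the genotype difference in the change from 0 and from 1 to 4 dpa, 0 to 3 for sp7+ against sp7- cells at 4 dpa, and 6 to 12 for sp7+ cells over time.

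With the replicate number as a block, unsorted libraries lost mmp20b in the genotype difference of the change from 0 to 4 dpa (adjusted p = 0.0528) and mmp11b in that from 1 dpa (adjusted p = 0.0558). Blocking sorted libraries by fin pool gave 7 members at 0 dpa and 3 at 4 dpa. With the replicate number as a block, sorted libraries lost mmp20a at 4 dpa (adjusted p = 0.0655), and no block changed another call.

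Over all genes, mutant against wildtype at 1 dpa called 248 genes in edgeR, 651 in DESeq2, 570 with no filter and 533 with only those groups, and 7 to 28 without 1 library. At 0 dpa the counts were 71, 209, 207 and 0, and 29 to 1500 without 1 library. At 4 dpa 5933 genes were called, and 126 to 4109 without 1 library. The genotype difference in the change to 4 dpa called 3720 genes, 441 with only those groups and 79 to 7499 without 1 library, and that from 1 dpa 4478, 7289 and 577 to 3048. For 1 against 0 dpa the difference called 102, 290 in DESeq2, 261 with no filter and 44 with only those groups. DESeq2 called 1893 against 3077 genes for wildtype 1 against 0 dpa, 1259 against 2313 for 4 against 0 dpa, 1242 against 2020 and 1794 against 3022 for mutants, 2104 against 3357 and 1051 against 1681 for sp7+ against sp7- cells, and 2914 against 5114 and 1795 against 3189 for sp7+ and sp7- cells over time. Tests against no change, counted only where the estimated change was also beyond 2-fold, called 3432 to 8628 genes in the comparisons made against 2-fold. Mutants at 1 against 0 dpa called 1018 genes when fitted alone. With DESeq2's size factors the share of higher calls in the genotype difference of the change from 1 to 4 dpa was 53.9% instead of 41.9%. Groups of 2 libraries and counts of 0 to 3 for the mmp20 genes limit what could be shown.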
